A study of Mus musculus with 40 samples.

Results

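The circadian clock genes Npas2, Clock, Per1, Per2, Per3, Cry1, Cry2, Nr1d1, Nr1d2 and Dbp were examined in RRBS (reduced representation bisulfite sequencing) libraries of liver from 40 mice, all male, 9 weeks old and labelled C57BL/6 (C57BL/6J in the study's methods). Every CpG listed in the deposited counts within 5 kb of an annotated transcription start of these 10 genes was taken, which gave 227 of 400298 CpGs. Npas2 entered because of a measured value, a single CpG 56 bp after an annotated start in HF-fed animals, so that CpG is described below without a test wherever the same mice are compared. The other 9 genes were added as partners in the same feedback loop.

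Mice were born from dams fed a low fat (LF) or a high fat (HF) diet and were themselves fed LF or HF after weaning, with 10 mice in each of the 4 combinations. The groups are written with the maternal diet first: LF_LF, LF_HF, HF_LF and HF_HF. The maternal comparisons were HF_HF against LF_HF and HF_LF against LF_LF, and the post-weaning comparisons were LF_HF against LF_LF and HF_HF against HF_LF. The sources used here give neither litters nor the hour of collection, so p-values measure the spread between mice, and time of day was not analysed. Per the study's methods, males of each cage were divided between the post-weaning diets, so mice can share a dam within and across groups. The tests take each mouse as independent, and in the maternal comparisons shared dams can make p-values too small.

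In mammals the clock is a transcriptional feedback loop that runs in nearly every cell, including hepatocytes. CLOCK or its paralog NPAS2 pairs with ARNTL on E-boxes and activates the Per and Cry genes, whose proteins then repress that activator. The nuclear receptors encoded by Nr1d1 and Nr1d2 repress Arntl in a second loop, and DBP carries the rhythm to output genes of liver metabolism. Methylation of CpGs at a promoter is commonly associated with a silent gene, and promoters of active genes in CpG islands are mostly unmethylated.

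Depth set the precision of all values. Between 2969907 and 23345592 reads at CpGs were available for a mouse, and 4 mice had a median of only 12 or 13 reads per CpG (HF_HF replicates 8 and 9, LF_HF replicate 10 and LF_LF replicate 1). The median mouse covered a clock CpG with 13 to 32 reads, so a single read moved a value by several percentage points. Of the 227 clock CpGs, 137 had at least 10 reads in at least 36 mice and were tested, and the other 90 were covered in 33 to 35 mice. As a check of the tissue, the promoters of 3 leukocyte marker genes were at 77.2% to 86.6% methylation and those of 2 hepatocyte marker genes at 3.01% and 23.0%, the only ones of 10 with a tested promoter CpG. Promoters of other liver cell types were low as well, at 1.98% for the endothelial gene Kdr, 2.92% and 12.45% for the stellate genes Lrat and Des and 7.9% for the cholangiocyte gene Sox9, so the levels do not set hepatocytes apart from these cells. In whole liver, a different mix of cell types and a different level within cells cannot be told apart.

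The sequences below show the sites on which the comparisons turn. MspI, the enzyme used for RRBS, cuts at CCGG, so reads begin at that sequence, and CCGG (or CG, where the CpG lies outside CCGG) is in capitals. All are from the plus strand of mm9.
Npas2, chr1:39251099-39251128: agacggtgggctcCCGGagctgctcgccaa
Npas2, chr1:39251374-39251403: cttagacagctctgCGctcctgggactccc
Per1, chr11:68917420-68917449: ccaagcccccaccCCGGccccgcctccttg
Per3, chr4:150418307-150418336: ccaccaggtactgCCGGgtctccacaggga
Cry1, chr10:84647162-84647191: ggttgtcgtggagCCGGagtccctttcgga
Cry1, chr10:84647497-84647526: gggcctgagacccCCGGagcgcaagcgagc
Nr1d2, chr14:19072939-19072968: actgaaaaactccaCGgtcttcccctaatc
Dbp, chr7:52963126-52963155: cgaggaggcggggCCGGgaacgtgcgggtg

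Coverage differed strongly between the genes. Cry1 had 72 listed CpGs (43 tested), Npas2 42 (37), Nr1d2 30 (9), Clock 22 (14), Per3 18 (8), Nr1d1 15 (8), Cry2 14 (5), Dbp 11 (11) and Per1 3 (2). Per2, which encodes a repressor of the loop, had 0 listed CpGs, and the nearest listed CpG lay 8051 bp from its start. The windows held 3309 CpGs and 347 CCGG sites, and each listed CpG lay at most 49 bp from a CCGG. By annotation, 79 of the listed CpGs were in untranslated regions, 20 in coding exons, 3 in other exons, 62 in introns and 63 outside the gene. Of the 11 Dbp CpGs, 6 also lay within 5 kb of a start of the neighbouring gene Car11.

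The 5 kb limit cut through few CpGs. The farthest CpG inside the Dbp window lay 4158 bp from a start at 0.68% methylation, and the nearest one outside lay at 5625 bp and 34.0%. For Per3 the corresponding CpGs lay at 2532 bp (84.8%) and 5406 bp (95.3%), and for Per1 at 3411 bp (96.4%) and 6321 bp (0.0%).

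The E-boxes of the clock windows were not covered. The windows held 38 copies of CACGTG (the letters read the same on both strands) and a CpG sits in the middle of each, but 0 of these CpGs were listed. Over the whole table, 1462 listed CpGs, or 0.366%, lay in CACGTG. The motif was found within 5 kb of the first start in 9 of the 10 clock genes and in 69.0% of protein-coding genes, and in the 300 bp promoter in 2 of 10 and in 7.8%. The cAMP response element TGACGTCA occurred 2 times in the windows, also with 0 listed CpGs. Within 5 kb of the first start it was found in 1 of the 10 genes and in 8.0% of protein-coding genes.

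Mean levels of the clock CpGs fell into 2 classes. Of the 227 CpGs, 210 had a mean below 10% over the mice, 17 had a mean of 50% or more, and 0 lay between. Of the low CpGs, 202 were within 1 kb of a start (median distance 301 bp), whereas 0 of the 17 high CpGs were (median 2532 bp). The listed CpGs of Clock, Cry2 and Nr1d1 were all below 10%, with highest means of 9.46%, 6.84% and 7.64%. The high CpGs were spread over Npas2 (4, introns, up to 94.7%), Per3 (4, up to 94.95%), Dbp (3, upstream, up to 95.1%), Per1 (2, coding exon, 84.3% and 96.4%), Cry1 (2, intron, 88.3% and 86.8%) and Nr1d2 (2, upstream, 61.3% and 67.1%). The plot of level against distance shows both classes.

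**Figure D1:**
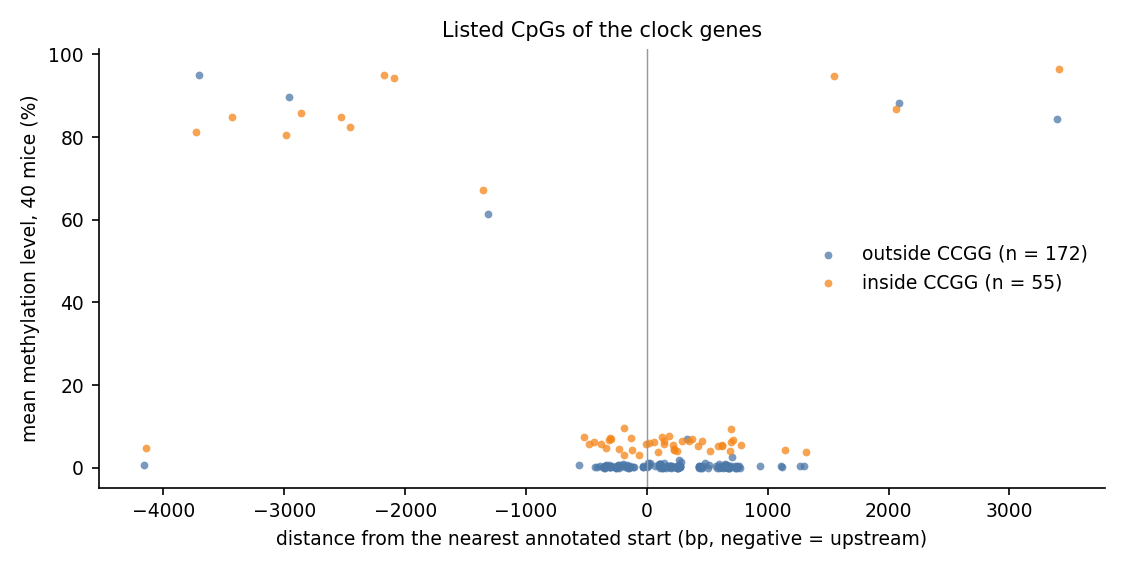
Mean methylation level over the mice (y axis, %) of the 227 listed CpGs of the clock genes against the distance from the nearest annotated start (x axis, bp), with CpGs inside CCGG in orange and others in blue. The 210 low CpGs cluster around the start, where orange points sit above blue ones, and all 17 high CpGs lie more than 1 kb away.

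Among the low CpGs, levels inside CCGG were higher than outside it. The 43 low clock CpGs inside CCGG had a median of 5.76% (5th to 95th percentile 3.76% to 7.62%), and the 167 outside CCGG had a median of 0.303% (0.00% to 1.01%). The same gap was present over all listed CpGs with a mean below 20%, at 5.72% for 55277 CpGs inside CCGG and 0.461% for 181801 outside. Among CpGs at 50% or more the medians over all listed CpGs were 89.1% inside and 89.8% outside, and the clock CpGs had medians of 85.3% (12 CpGs inside) and 88.3% (5 outside). A CpG inside CCGG is read at the first base of the fragment. What part that position has in its level was not tested. The single outlying value outside CCGG was an Npas2 CpG at 6.92%, described below.

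**Figure D2:**
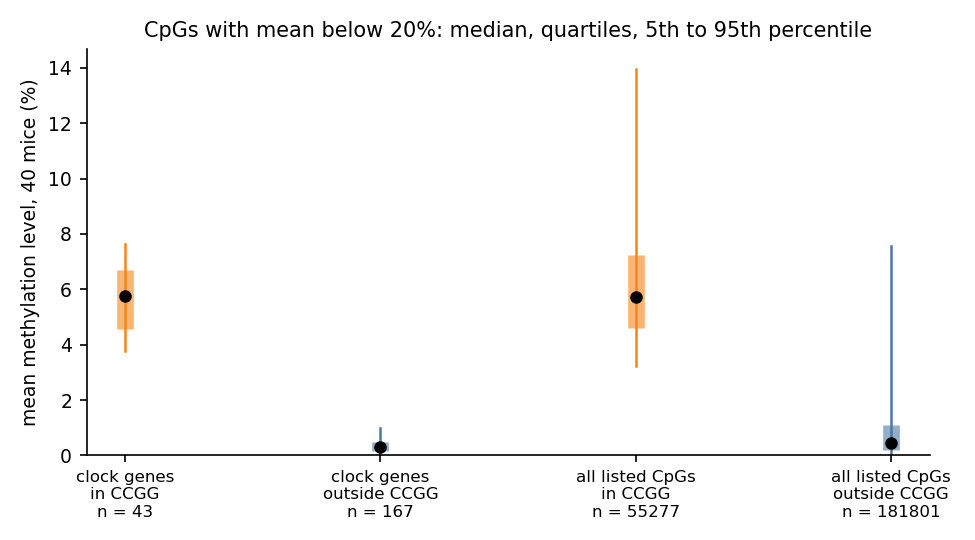
Mean methylation level (y axis, %) of CpGs with a mean below 20%, for the clock genes and for all listed CpGs, inside and outside CCGG; points are medians, boxes quartiles and lines the 5th to 95th percentile over CpGs. Both medians inside CCGG lie near 5.7% and both medians outside lie below 0.5%.

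Averaged per mouse, the low CCGG CpGs of the clock genes overlapped between groups. The mean over 43 CpGs was 5.81% ± 0.856 (SD, n = 10) in LF_LF, 6.41% ± 0.960 in LF_HF, 5.37% ± 0.672 in HF_LF and 5.74% ± 1.39 in HF_HF. The ranges over mice overlapped in all pairs of groups, from 4.27% to 8.95% in HF_HF and from 5.15% to 7.91% in LF_HF.

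Npas2, the paralog of Clock, was chosen from the CpG at position 39251113 of chromosome 1, 56 bp after an annotated start, in an untranslated region and inside CCGG. The level was 0.00% to 16.7% in LF_LF (median 5.93%), 4% to 10% in LF_HF (median 8.63%) and 0.00% to 15.8% in HF_LF (median 9.52%). In HF_HF it was 0.00% to 4.55% (median 0.980%). All HF_HF mice thus sat low, and 9 of the 10 lay below the lowest LF_HF mouse, while 5 HF_HF mice, 3 LF_LF mice, 1 HF_LF mouse and 0 LF_HF mice had no methylated read.

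Group means at this CpG were 6.86% ± 6.37 (SD, n = 10) in LF_LF, 7.60% ± 2.24 in LF_HF, 8.99% ± 5.07 in HF_LF and 1.48% ± 1.69 in HF_HF. HF_HF was lower than LF_HF by -6.11 percentage points (SE 0.889), the difference that chose the gene, and differed from HF_LF by -7.50 (SE 1.69). These values describe the choice and carry no test. The maternal comparison in LF-fed animals uses other mice, and there HF_LF differed from LF_LF by 2.13 percentage points (SE 2.57), opposite in sign and within the spread between mice (permutation test with 100000 resamples, two-sided, p = 0.416, FDR 0.836). With the mean methylation of the mouse as a covariate this difference was 5.23 (unadjusted p = 0.0995). LF_HF differed from LF_LF by 0.73 percentage points (SE 2.13).

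The counts behind these levels were small. HF_HF had 6 methylated reads among 345, or 1.74% (95% Wilson interval 0.799% to 3.74%), against 23 of 305 in LF_HF (7.54%, 5.08% to 11.1%), 31 of 366 in HF_LF (8.47%, 6.03% to 11.8%) and 20 of 298 in LF_LF (6.71%, 4.39% to 10.1%). The intervals pool the reads of 10 mice and cover counting error only. HF_HF was in the comparison that chose the CpG, so a gap between its interval and another is no test of a difference. The 5 HF_HF mice at 0 had 16 to 33 reads, which allows levels of up to 9.09% to 18.8% in a single mouse. Without the 4 shallow mice the difference from LF_HF was -5.89 percentage points.

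For scale, 36535 tested CpGs lay inside CCGG with a mean below 20%, and their median was 5.82% in LF_LF, 5.84% in LF_HF, 5.75% in HF_LF and 5.83% in HF_HF. In the LF-fed groups, which the choice did not use, 64.1% of them had an LF_LF mean and 83.3% an HF_LF mean at or below that of the Npas2 CpG.

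Around this site, 13 other CpGs were listed within 100 bp. The HF_HF mean was the lowest of the 4 groups at 7 of them and lay below the LF_HF mean at 8, which is a description with no test, since these CpGs share mice and partly reads with the chosen one. Most were near 0: the CpG 10 bp further on was at 0.5% in LF_LF, 1.14% in LF_HF, 0.192% in HF_LF and 0.125% in HF_HF. The CpG at 39251162, outside CCGG, had 2.67%, 0.756%, 0.683% and 0.0% in the same order, with 0 of 348 reads methylated in HF_HF.

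The other CpGs inside CCGG near this site gave a mixed picture. The CpG 8 bp before the start, listed in 33 mice, was at 8.90% ± 8.64 in LF_LF, 5.42% ± 3.57 in LF_HF, 5.43% ± 6.20 in HF_LF and 2.66% ± 4.76 in HF_HF. A CCGG further downstream was read from both strands, and its plus-strand cytosine (39251201) was at 6.18%, 9.73%, 5.95% and 3.95% in LF_LF, LF_HF, HF_LF and HF_HF. Its minus-strand cytosine (39251202) was at 7.09%, 5.68%, 4.95% and 5.43%. HF_HF thus had the lowest mean at the first and second of these but not at the third, and the SDs were as large as the differences.

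A second Npas2 CpG stood out between HF_LF and LF_LF, whose mice the choice did not use, and between LF_HF and LF_LF, which shares the LF_HF mice with the choice. The CpG at 39251389, 332 bp after the same start and 16 bp from the nearest CCGG, had the highest level of the 167 low clock CpGs outside CCGG. It was at 0.00% to 8.33% in LF_LF (median 1.47%), 0.00% to 19.05% in LF_HF (median 8.58%), 0.00% to 12.1% in HF_LF (median 8.49%) and 0.00% to 15.4% in HF_HF (median 8.19%). LF_LF was the lowest group, with 5 LF_LF mice at 0 against 1 mouse in each other group.

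The means were 2.63% in LF_LF, 9.43% in LF_HF, 7.12% in HF_LF and 8.5% in HF_HF. HF_LF was higher than LF_LF at this CpG by 4.49 percentage points (SE 1.59, permutation p = 0.0127), and LF_HF was higher than LF_LF by 6.80 (SE 2.15, permutation p = 0.00378). After adjustment over all CpGs tested the FDR was 0.819 and 0.808, and both comparisons share the LF_LF mice. HF_HF differed from HF_LF by 1.38 (SE 2.04, permutation p = 0.505). In the intronic Npas2 start region, a highly methylated CpG at 39395415 was at 86.0% ± 6.05 (SD, 9 mice) in HF_LF and 77.5% ± 7.94 (10 mice) in LF_LF, a difference of 8.45 percentage points (SE 3.27, unadjusted p = 0.0193 and FDR 0.819 in the test across CpGs). Its unadjusted p was not below 0.05 by a quasi-binomial model or with mean methylation of the mouse as a covariate.

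**Figure D3:**
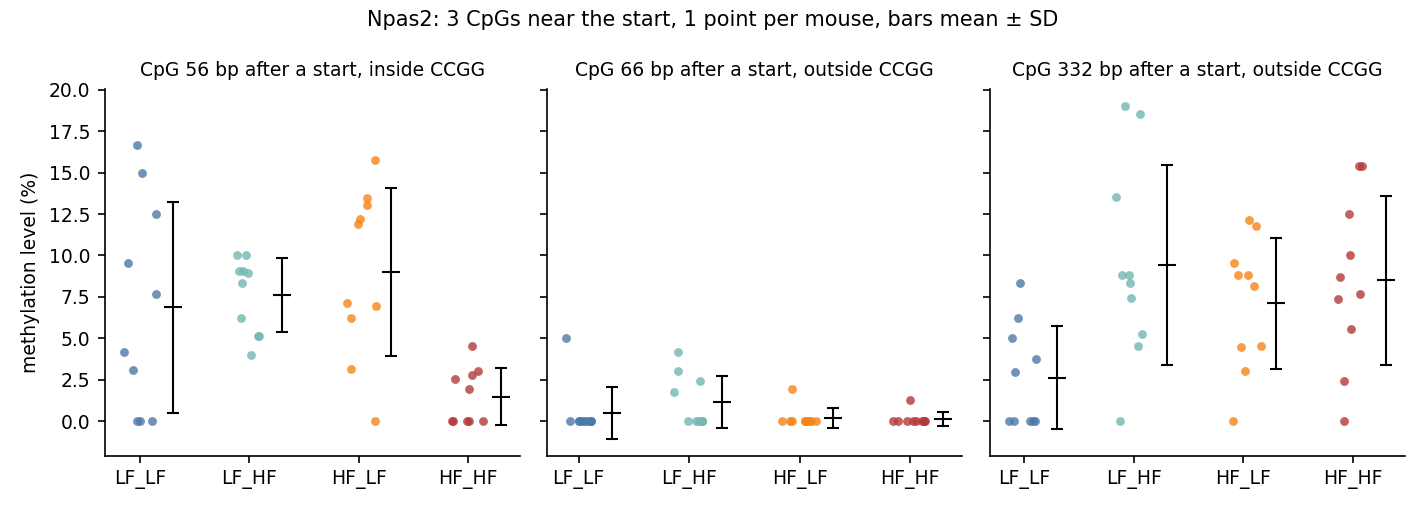
Methylation level (y axis, %) of 3 Npas2 CpGs in each mouse by group (x axis), with bars for mean ± SD. At the CpG 56 bp after a start the HF_HF mice lie between 0.00% and 4.55%; the CpG 10 bp further on is near 0 in all groups; at 332 bp LF_LF is lowest.

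Upstream of the first Npas2 start all listed CpGs were low. The stretch chr1:39250227-39250446, plus strand, is shown with its 13 listed CpGs in capitals because it holds every listed CpG upstream of the first start.
Npas2 upstream: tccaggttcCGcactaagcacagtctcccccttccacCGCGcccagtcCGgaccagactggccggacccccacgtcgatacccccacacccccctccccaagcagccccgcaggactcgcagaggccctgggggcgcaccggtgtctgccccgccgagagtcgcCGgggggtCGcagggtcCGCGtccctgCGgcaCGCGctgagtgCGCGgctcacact
Means over the mice ran from 0.00% to 9.59%, and the highest group mean was 11.7%. The 2 CpGs inside CCGG had the highest means, 9.59% and 7.02%.

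Clock encodes the other partner of ARNTL. Its 14 tested CpGs were all low. Of the 9 to 11 with a p-value in each of the 4 comparisons, 0 had an unadjusted p below 0.05. The share over all CpGs was 3.72% to 4.06%, so 0 of so few does not set the gene apart. Differences at CpGs with a test ran from -3.63 to 1.96 percentage points between HF_HF and LF_HF and from -1.22 to 2.14 between HF_LF and LF_LF.

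The repressor genes Per1, Per3, Cry1 and Cry2 had an unadjusted p below 0.05 in 5 of 176 tests over the 4 comparisons (2.84%, against 3.72% to 4.06% of all CpGs), at 4 CpGs. The Per1 CpG at 68917435 of chromosome 11, in a coding exon 3411 bp after a start, was fully methylated in all 9 LF_HF mice with a value (154 of 154 reads). It was at 90.0% to 100.0% in HF_HF (median 96.0%, n = 9), 90.9% to 100.0% in LF_LF (median 100.0%, n = 9) and 83.3% to 100.0% in HF_LF (median 93.8%, n = 10). The other groups overlapped this level, since each held mice at 100.0%. Between group means, HF_HF was lower than LF_HF by -4.05 percentage points (SE 1.40, exact permutation p = 0.0294, FDR 0.822). LF_HF exceeded LF_LF by 3.03 (SE 1.24), with p = 0.0824 in the exact permutation test and an unadjusted p of 0.0262 in the test across CpGs, which was 0.0511 to 0.0521 without LF_LF replicate 5, 8 or 9.

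Per3 had its lowest p-value at 150418321 of chromosome 4, in a coding exon 453 bp after a start. The level was 0.00% to 27.3% in LF_LF (median 8.71%) and 0.00% to 11.8% in LF_HF (median 3.12%), with wide overlap. The mean was 10.8% in LF_LF and 3.75% in LF_HF, so that LF_HF was lower by -7.06 percentage points (SE 3.20, exact permutation p = 0.0391, FDR 0.808), and without LF_LF replicate 1, 6, 7 or 10 or LF_HF replicate 2, 3, 4, 5, 7 or 9 its unadjusted p was 0.0542 to 0.0761.

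Cry1, with the most CpGs, had 2 such CpGs. At 84647176 of chromosome 10, in a coding exon, the median was 0.00% in LF_LF (7 of 10 mice at 0) and 6.67% in LF_HF (1 of 9 mice at 0). The means were 1.90% and 9.81%, a difference of 7.91 percentage points (SE 3.07, exact permutation p = 0.0108, FDR 0.808). At 84647511, in an untranslated region, the median was 8.51% in LF_LF and 1.14% in HF_LF, and the means were 7.71% and 2.75%, a difference of -4.96 (SE 2.11, exact permutation p = 0.0314, FDR 0.819), and without LF_LF replicate 2, 3, 5 or 9 or HF_LF replicate 1, 3, 4, 8 or 10 its unadjusted p was 0.0501 to 0.0733. Each of the 2 CpGs was called in a single comparison. Cry2, with 3 to 5 CpGs testable per comparison, had 0 such CpGs and differences from -2.52 to 1.61 percentage points.

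Nr1d1 encodes the main repressor of Arntl. Of its 6 or 7 CpGs with a p-value in each of the 4 comparisons, 0 had an unadjusted p below 0.05. The share over all CpGs was 3.72% to 4.06%, so 0 of so few does not set the gene apart. Its CpG at 98636630, 17 bp inside the gene and within CCGG, was at 4.36% ± 4.82 (SD, 8 to 10 mice in each group) in LF_LF, 9.21% ± 7.05 in LF_HF, 3.84% ± 3.73 in HF_LF and 7.29% ± 4.55 in HF_HF. Both HF-fed groups had the higher means. The term of post-weaning diet over the 40 mice was 4.15 percentage points at this CpG with an unadjusted p of 0.0202 and an FDR of 0.860.

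Nr1d2, its paralog, carried the largest difference between HF_HF and LF_HF. The CpG at 19072954 of chromosome 14 lies upstream of the start (-1313 bp), outside CCGG, and is the lowest of the 17 CpGs at 50% or more. It was at 43.5% to 68.4% in LF_LF (median 57.9%, n = 9), 57.7% to 76.2% in LF_HF (median 69.9%, n = 10), 39.1% to 82.1% in HF_LF (median 64.9%, n = 8) and 47.4% to 72.7% in HF_HF (median 57.1%, n = 9). The means were 56.5%, 67.9%, 62.1% and 58.0% in the same order. LF_HF stood highest, and 5 of its 10 mice lay above all LF_LF mice. HF_HF was lower than LF_HF by -9.87 percentage points (SE 3.79, exact permutation p = 0.0212, FDR 0.822), and LF_HF was higher than LF_LF by 11.4 (SE 3.87, exact permutation p = 0.0102, FDR 0.808).

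The maternal difference at that Nr1d2 CpG was 5.65 percentage points in LF-fed mice, and the interaction of both diets was -15.5 (SE 7.16, unadjusted p = 0.0376, FDR 0.868). The CpG at 19072995, 41 bp away and inside CCGG, had an interaction of -14.6 (SE 6.80, unadjusted p = 0.0394, FDR 0.868). Its means were 62.9% in LF_LF, 69.5% in LF_HF, 72.2% in HF_LF and 64.3% in HF_HF. Both CpGs are read on the same strand within a read length, so they are not independent. With mean methylation of the mouse as a covariate, neither interaction had an unadjusted p below 0.05. A low Nr1d2 CpG, at 19070766 in an intron, was at 2.002% ± 3.11 (SD, 8 mice) in LF_LF and 9.41% ± 7.33 (9 mice) in LF_HF, a difference of 7.41 percentage points (SE 2.80, unadjusted p = 0.0182 and FDR 0.808 in the test across CpGs).

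Dbp, the output factor, had 1 such CpG, at 52963140 of chromosome 7, inside CCGG and within an exon. It was at 0.00% to 12.5% in LF_LF (median 7.42%, n = 8) and 0.00% to 5.26% in HF_LF (median 1%, n = 10). The means were 7.14% and 1.80%, so that HF_LF was lower by -5.33 percentage points (SE 1.57, exact permutation p = 0.00446, FDR 0.819). In HF-fed animals HF_HF and LF_HF differed by 0.62 (SE 3.21, exact permutation p = 0.875), and the difference between these maternal effects was not past the threshold either (interaction 5.95, SE 3.65, unadjusted p = 0.112). These values rest on HF_HF replicate 8, a shallow mouse at 26.7%, without which the difference was -1.80 (SE 2.06, exact permutation p = 0.406) and the interaction 3.53 (unadjusted p = 0.182).

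Counted over the genes, clock CpGs with an unadjusted p below 0.05 made up 0.901% to 5.61% of those tested in the 4 comparisons, against 3.72% to 4.06% of all CpGs. Between HF_HF and LF_HF there were 3 of 113 with a p-value, against 3.72% of all CpGs tested; the Npas2 CpG was 1 of the 3, and without Npas2 there were 2 of 80. Between HF_LF and LF_LF there were 4 of 106 (3.77%), against 3.99%, of which 2 were higher and 2 lower in HF_LF.

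For post-weaning diet there were 6 of 107 (5.61%), against 4.03%, between LF_HF and LF_LF, 5 of them higher in LF_HF. Between HF_HF and HF_LF there was 1 of 111 (0.901%), against 4.06%, and that was the Npas2 CpG again, so without Npas2 there were 0 of 77. This count, with the Npas2 CpG as 1 of it, moved to between 3 and 5 by the exact Wilcoxon test, by the quasi-binomial model, with total reads or mean methylation of the mouse as a covariate and without the shallow mice. The median difference of the clock CpGs ran from -0.086 to 0.312 percentage points over the 4 comparisons, against -0.211 to 0.164 for all CpGs. In the models over 40 mice there were 4 of 126 for maternal diet (3.96% of all CpGs), 6 of 126 for post-weaning diet (4.36%) and 3 of 126 for the interaction (4.18%), with the chosen Npas2 CpG in each of the last 2 counts.

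No clock CpG had an FDR below 5%. Over all CpGs 0% passed for maternal diet in HF-fed and in LF-fed mice, 0.00084% (2 CpGs) for post-weaning diet in offspring of LF dams and 0.00124% (3 CpGs) in offspring of HF dams. For the models the shares were 0% for maternal diet, 0.00275% for post-weaning diet and 0% for the interaction. The smallest FDR of a clock CpG was 0.819 between HF_LF and LF_LF and 0.808 between LF_HF and LF_LF. By limma, 2, 9, 5 and 2 of 137 clock CpGs had an unadjusted p below 0.05 in the 4 comparisons (in the order HF_HF against LF_HF, HF_LF against LF_LF, LF_HF against LF_LF, HF_HF against HF_LF), against 4.42%, 6.14%, 4.58% and 4.9% of all CpGs by the same method. By limma 0 clock CpGs had an FDR below 5%, and over all CpGs the share was 0% in each comparison.

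Of the 14 tests with an unadjusted p below 0.05 in the 4 comparisons, 2 were of the chosen Npas2 CpG. Of the other 12, 8 were at CpGs inside CCGG, where 36 of the 106 to 113 clock CpGs tested in a comparison lay. Over all CpGs, 52.4% to 55.8% of those with an unadjusted p below 0.05 lay inside CCGG, against 40.8% to 41.5% of those tested. The part of the CCGG position in these calls was not tested.

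**Figure D4:**
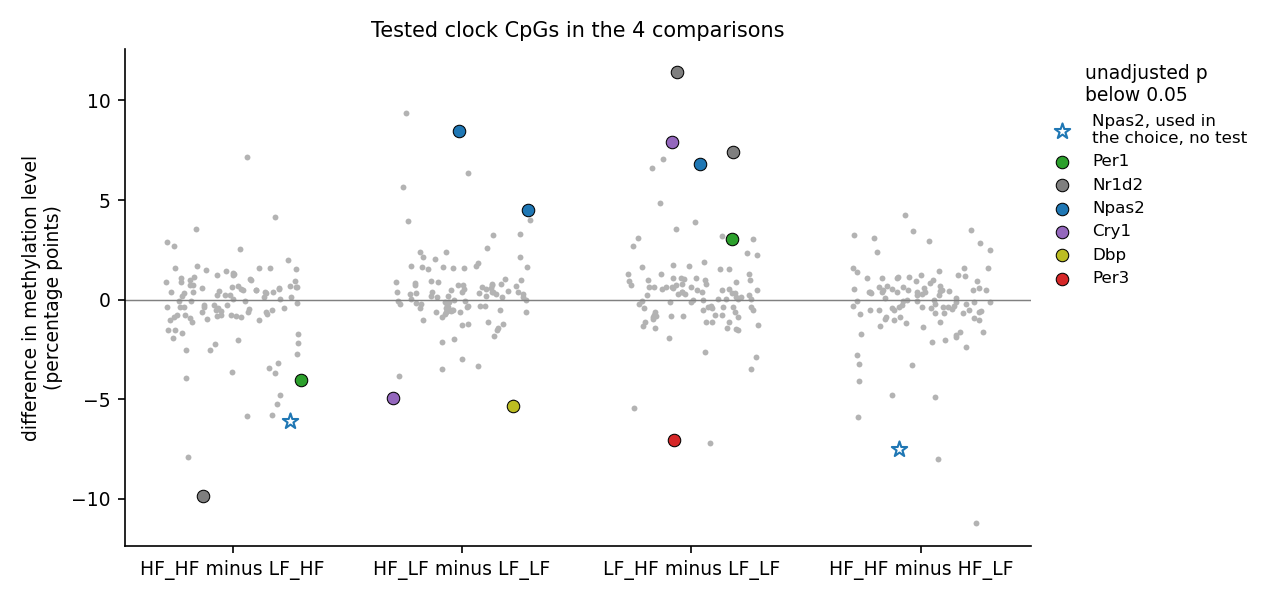
Difference in methylation level (y axis, percentage points) of each tested clock CpG in the 4 comparisons (x axis); coloured points have an unadjusted p below 0.05 and stars mark the Npas2 CpG used in the choice. Coloured points lie on both sides of 0, with 2 of Npas2 between HF_LF and LF_LF and 1 between LF_HF and LF_LF.

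Averaged over a gene's window, the clock genes differed little between groups. Of the 8 genes with at least 3 tested CpGs, 0 had an unadjusted p below 0.05 between HF_HF and LF_HF (4.72% of all gene windows), 0 between HF_LF and LF_LF (5.34%), 1 between LF_HF and LF_LF (5.38%) and 0 between HF_HF and HF_LF (5.87%). Npas2 is among the 8 and its window holds the chosen CpG, so its value between HF_HF and LF_HF is no test. No window had an FDR below 5%, and over all genes the share was 0% in each comparison. Npas2, over 37 CpGs, was at 11.2% ± 1.04 in LF_LF, 11.3% ± 0.471 in LF_HF, 11.3% ± 0.712 in HF_LF and 10.9% ± 0.683 in HF_HF. Cry1, over 43 CpGs, was at 2.81% ± 0.740, 3.16% ± 0.427, 3.12% ± 0.329 and 3.26% ± 0.832 in the same order.

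The window that passed was Nr1d2, with 9 CpGs. It was at 12.7% ± 3.35 in LF_LF, where 1 mouse had no value, 16.2% ± 2.18 in LF_HF, 15.2% ± 2.04 in HF_LF and 14.5% ± 1.70 in HF_HF. LF_HF exceeded LF_LF by 3.47 percentage points (SE 1.28, exact permutation p = 0.0103, FDR 0.829). With all reads of the window pooled the difference was 2.002 (SE 6.74, unadjusted p = 0.770). Within 1 kb of a start, LF_HF also exceeded LF_LF at Nr1d1 (1.52, SE 0.464, unadjusted p = 0.00515), at Nr1d2 (1.203, SE 0.360, unadjusted p = 0.00445) and at Cry1 (0.58, SE 0.269, unadjusted p = 0.0453), with FDRs of 0.779, 0.779 and 0.938. HF_HF exceeded HF_LF at Nr1d1 (1.03, SE 0.439, unadjusted p = 0.0308, FDR 0.926). These were 3 and 1 of 8 clock windows of 1 kb, against 5.21% and 5.33% of all such windows. Between HF_HF and LF_HF and between HF_LF and LF_LF there were 0 and 0 of 8, against 4.62% and 5.18%, and over all windows of 1 kb 0% had an FDR below 5% in each comparison. Npas2, with the chosen CpG, is among these 8 too, and its value between HF_HF and LF_HF is again no test.

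**Figure D5:**
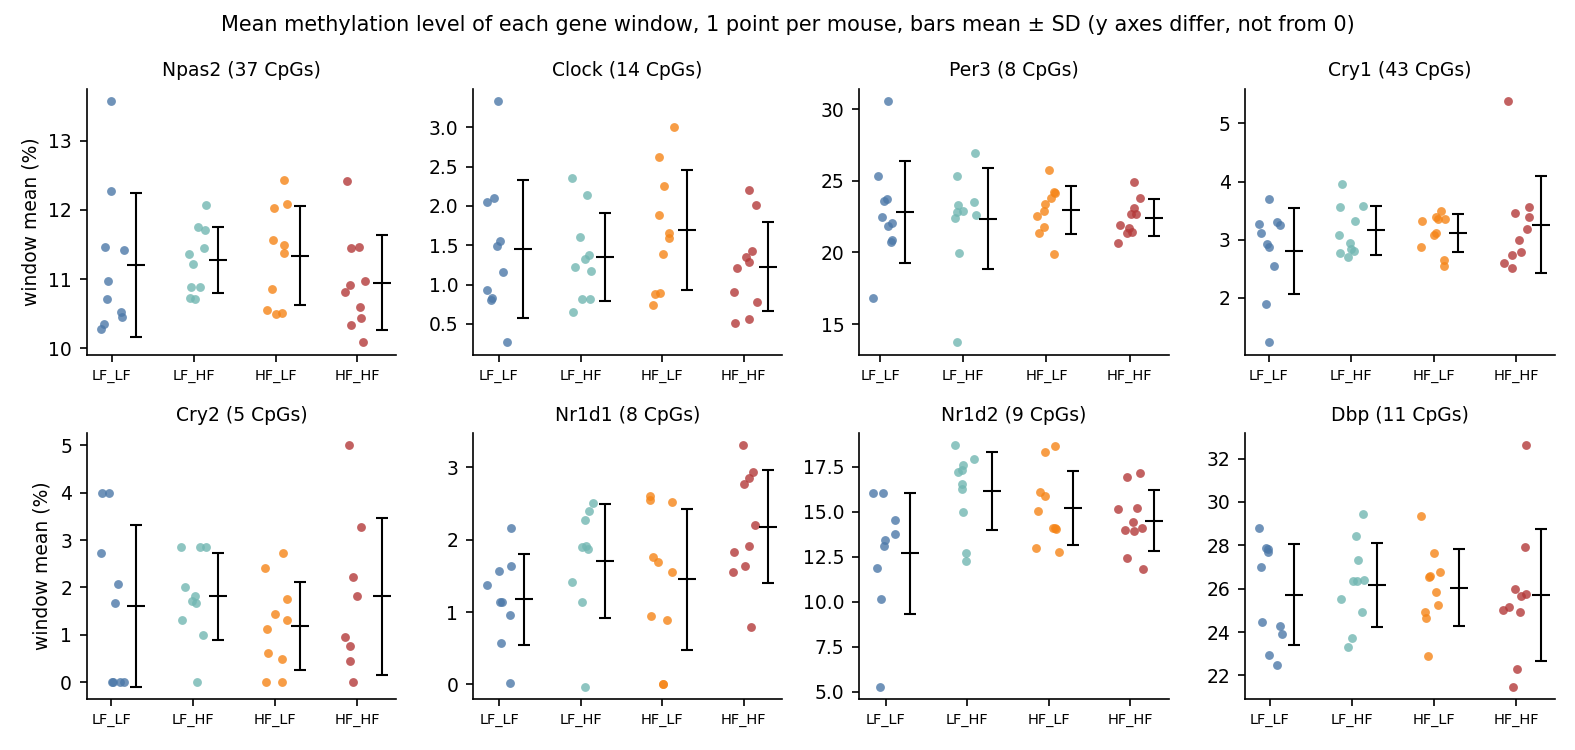
Mean methylation level of the tested CpGs within 5 kb of a start (y axis, %, a separate axis for each gene that need not start at 0) in each mouse by group (x axis), with mean ± SD. The groups overlap in all 8 genes; LF_LF is lowest for Nr1d2.

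Other genes of the clock pathway were counted in the same way. A list of 24 further genes (among them the activators Arntl and Arntl2, the receptors Rora and Rorb, the repressors Bhlhe40 and Bhlhe41, kinases, ubiquitin ligases and output factors) had listed CpGs at 20 genes and tested CpGs at 18, with 579 listed and 295 tested. Unadjusted p-values below 0.05 were found at 5 of 243 between HF_HF and LF_HF (2 higher, 3 lower), 4 of 250 between HF_LF and LF_LF (1 higher, 3 lower), 5 of 247 between LF_HF and LF_LF (3 higher, 2 lower) and 5 of 259 between HF_HF and HF_LF (2 higher, 3 lower), and 0 had an FDR below 5%. These are 2.06%, 1.6%, 2.02% and 1.93% of the CpGs tested, against 3.72%, 3.99%, 4.03% and 4.06% of all CpGs, a difference that was not tested. Arntl itself, the shared partner of CLOCK and NPAS2, had 50 listed CpGs with a median level of 0.47%, and Rora had 95 with a median of 0.60%. Higher medians were found at Hlf, which encodes a factor related to DBP (80.9%), at Rorb (76.4%) and at Arntl2 (61.5%).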

How the data were processed

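Per the study's methods, the authors cut liver DNA with MspI, size-selected and bisulfite-treated it, and aligned single-end reads with Bismark. The submitters' processing notes name the build mm9, and every listed CpG on a reference chromosome fell on a CG of it. The deposited table gives, for every cytosine of a CpG in every mouse, a count of total reads, a count of those read as methylated and the share of the latter as a fraction, without normalization; totals under 10 reads are missing. There were 0 columns of no mapped mouse.

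Percent methylation was recomputed from the deposited counts. CpGs with at least 10 reads in at least 36 of 40 mice (262317) were tested by a two-sided Student's t-test for each pair of groups, as in the study's methods, with Benjamini-Hochberg adjustment over all CpGs tested (FDR). A linear model over 40 mice gave both diets and their interaction. Gene-window means averaged the deviations of a mouse from each CpG's mean, for all genes with at least 3 tested CpGs. Single CpGs were also given permutation tests with 100000 resamples, exact where a group had fewer values than mice. Starts and annotation came from GENCODE on mm9. Tests were checked on simulated data. Named CpGs were the Npas2 CpG used in the choice and its neighbours within 100 bp, and for each gene the CpG with the smallest unadjusted p below 0.05 in a comparison and those with the highest and lowest levels or the largest SD; Npas2 39395415, Nr1d1 98636630 and Nr1d2 19070766 were named after their values were seen. Alternatives were Welch's and exact Wilcoxon tests, a quasi-binomial model, limma 3.58.1 (0.5 added to each count), other read and mouse minimums, summed strands, covariates and other windows. Python 3.11.15, scipy 1.17.1 and R 4.3.3 were used. Members and lists were chosen with earlier results of these data known.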

Additional observations from a re-analysis of the deposited data

Results flagged for a closer look

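Among 63 groups of values tested for a single distant sample, 4 were found, and chance gives about 1 in 20. At the Cry1 CpG 84647176 an LF_LF mouse was at 10%, with the next at 5.26%. At the Dbp CpG 52963140 an HF_HF mouse was at 26.7%, with the next at 7.14%. In the Cry1 window an HF_HF mouse, replicate 9 and the shallowest library, had a mean of 5.39% against 3.57% in the next mouse. In the Per3 window an LF_HF mouse had 13.7%, with the next at 19.99%.

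The effect of maternal diet differed between post-weaning diets at a pair of neighbouring CpGs upstream of Nr1d2 by an unadjusted test of the interaction. At 19072954 the interaction was -15.5 percentage points (p = 0.0376), and at 19072995 it was -14.6 (p = 0.0394). The FDR was 0.868 for both, and with mean methylation of the mouse as a covariate neither had an unadjusted p below 0.05.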

How the results depend on the processing

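Depth limits these results: at a median of 20 reads a single read is worth 5 percentage points. No paired analysis was possible because the labels tie no mouse of a group to a mouse of another, and the replicate numbers only follow the order of deposit. The alternatives added after seeing the data were the CpGs outside CCGG, the removal of the 4 shallow mice, the covariate of low CCGG CpGs, the Dbp values without HF_HF replicate 8 and leaving out mice at CpGs other than the Npas2 one. Where no reason is given, the cause of a change was not tested.

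Counts of clock CpGs with an unadjusted p below 0.05 are given in the order HF_HF against LF_HF, HF_LF against LF_LF, LF_HF against LF_LF and HF_HF against HF_LF, for which they were 3, 4, 6 and 1. A minimum of 20 reads left 3 or 4 CpGs and gave 0, 0, 0 and 0. Coverage in all 40 mice left 16 or 17 CpGs and gave 1, 1, 1 and 1, and 1, 3 and 1 for maternal diet, post-weaning diet and the interaction. The chosen Npas2 CpG was alone in the first and last of the 4 and in the interaction, and 1 of the 3. The other calls were of Npas2 too. No share over all CpGs was taken for either filter or for model terms in alternatives. Without CpGs inside CCGG, and so without the chosen CpG, the counts were 1 of 77, 1 of 70, 2 of 71 and 0 of 75, against 2.82%, 3.12%, 3.28% and 3.03% of all CpGs, and 2, 2 and 1 of 90 for the 3 model terms. A covariate of low CCGG CpGs gave 5 for the first and 3 for the last comparison, against 4.07% and 4.18% of all CpGs, and windows of 1 kb gave 1 for the first, which was the chosen CpG alone. The chosen CpG is 1 of the 5 and of the 3, and 1 of each further count for the last comparison and for the interaction. Limma gave 9 for the second and 2 for the last, and log10 total reads as a covariate gave 7 and 5. The mean of the mouse gave 4 for the last and 5 for the interaction, no longer with Nr1d2 19072954 or 19072995. Over all CpGs the covariates gave 3.67% to 4.84% and the quasi-binomial model 4.59% to 5.04% in a comparison, where 7 was 6.6% and 5 was 4.5% of the clock CpGs. The exact Wilcoxon test, not run over all CpGs, gave 3 for the last, the quasi-binomial model 4, and removal of the 4 shallow mice 3, with 6 for the interaction. The gene windows passing were 1 for LF_HF against LF_LF, 0 with pooled reads and 3 within 1 kb, and 1 for HF_HF against HF_LF within 1 kb.

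Leaving out each mouse in turn moved the Npas2 difference between HF_HF and LF_HF from -6.51 to -5.84 percentage points, between HF_HF and HF_LF from -8.50 to -6.75, between HF_LF and LF_LF from 1.36 to 3.22, and between LF_HF and LF_LF from -0.03 to 1.82. Of 113 tested values of named CpGs under the alternatives other than leaving out single mice, 100 kept their direction and side of the threshold and 13 no longer passed. The lost calls, with unadjusted p, were those of the Per3 CpG by the exact Wilcoxon test (0.0523), the quasi-binomial model (0.0807), limma (0.0615), total reads (0.0539) or mean methylation (0.0554) as a covariate and without the shallow mice (0.061). With mean methylation as a covariate, Cry1 84647176 (0.0568), Cry1 84647511 (0.0612) and Nr1d2 19072954 between HF_HF and LF_HF (0.0727) were lost. By limma, Nr1d2 19072954 (0.0709) and Per1 68917435 (0.0734) between HF_HF and LF_HF were lost, and Per1 between LF_HF and LF_LF was lost by limma (0.0919) and the exact Wilcoxon test (0.0824). Differences at these named CpGs with an unadjusted p below 0.05 kept their sign under each alternative that gave a value. No alternatives were run for Npas2 39395415, Nr1d1 98636630 and Nr1d2 19070766, and the Dbp difference between HF_HF and LF_HF, which did not pass, turned to -1.80 without HF_HF replicate 8. The Npas2 difference between LF_HF and LF_LF, which carries no test, was -0.03 without LF_LF replicate 1, 7 or 8.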
